A study of Homo sapiens with 9 samples.

Results

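MSI1 (Musashi1) iCLIP sites in genes that have a single exon numbered 1817, of 42985 sites found at the same nucleotide and strand in at least 2 of the 3 iCLIP site lists. The sites were selected on the authors' own iCLIP calls, that is, on presence in the lists, and not on any knockdown value. A site was counted when it lay on the same strand in a gene with exactly 1 exon in the exon tables and outside the last exon of every gene with several exons. The sites fell in 191 of the 2490 single-exon genes: 1740 sites in 141 of 1345 noncoding genes, 66 sites in 43 of 1088 coding genes and 11 sites in 7 of 57 genes that could not be classed by their symbol. All samples were U251 cells, an established human glioblastoma line. The groups were RNA-seq of cells with MSI1 knocked down (3 samples, Msi1 KD in the titles), iCLIP with an antibody against MSI1 in wild-type cells (3 samples, U251 WT in the titles) and RNA-seq of wild-type cells (3 samples, also U251 WT), called control cells here. The labels do not describe how MSI1 was reduced or whether the wild-type cells received a control treatment. The lists come from 1 cell line, and no list from an input or from another antibody was used here. In iCLIP, ultraviolet light joins a protein to the RNA it touches, the protein is precipitated, and the end of each cDNA marks a single nucleotide beside the joined position.

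Musashi proteins bind RNA through RNA recognition motifs and are best known as regulators of messenger RNA translation and stability, acting on UAG-containing sites in 3′ untranslated regions of neural stem and glioma cells. Genes with a single exon are a mixed class. The coding ones include histones, SOX factors and immediate early genes such as JUN, and the noncoding ones include the nuclear RNAs MALAT1 and NEAT1, the small nucleolar RNAs (snoRNAs), the vault RNAs, the small nuclear RNAs (snRNAs) and microRNA hairpins. H/ACA snoRNAs guide the conversion of uridine to pseudouridine in ribosomal RNA, C/D snoRNAs guide its ribose methylation, and most of them are cut out of the introns of a host gene.

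The site windows below show where the iCLIP positions lie in the small RNAs that carried many of them, with the site nucleotide in capitals and 14 nucleotides on each side, written 5′ to 3′ with T for U. They are the 5 H/ACA snoRNAs and the 2 C/D snoRNAs with the most sites whose hg18 gene had a GENCODE release 29 transcript of the same symbol and length, each shown at the site present in all 3 lists with the lowest worst p-value, and SOX11, the coding gene with the most sites among those matched in this way. The sequence comes from those transcripts, so a gene whose ends were redrawn without a change of length could be shifted by a few nucleotides.
SNORA81: gcagacactaggacCatgtcttggttttt
SNORA48: tcccagcttggcttTtgatccgtgcccat
SNORA69: agccgtgttaatcaTttttgattttgcct
SNORA10: aaggctctcctaatGcacgacagacccgc
SNORA45: ctactggtcttgatTcactggtgggggca
SNORD45A: gtgttggcatgtatTatctgaatctattg
SNORD28: aattgataagctgaTgttctgtgaggtac
SOX11: gatctaaccagcttCttgacccacccccc

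In hg18 these windows are centred on chr3:187987202 (SNORA81), chr17:7418849 (SNORA48), chr11:8663641 (SNORA45), chr1:76026186 (SNORD45A) and chr2:5758829 (SOX11) on the plus strand, and on chrX:118805397 (SNORA69), chr16:1952387 (SNORA10) and chr11:62378716 (SNORD28) on the minus strand. The SNORA81 site at nucleotide 45 of 178 had the authors' p-values 2.64e-09, 1.53e-08 and 0.000414 in lists 1, 2 and 3. The other windows had larger values. In the same order they were 0.0532, 0.0379 and 0.0811 for SNORA48, 0.195, 0.122 and 0.127 for SNORA69, and 0.0532, 0.145 and 0.0449 for SNORA10. SNORA45 had 0.612, 0.292 and 0.135, SNORD45A 0.212, 0.156 and 0.0347, and SNORD28 0.612, 0.221 and 0.549. SOX11 had 0.0296 and 0.283 in lists 1 and 2. The SOX11 site lay at nucleotide 8580 of 8719, 1 of 4 sites in that gene, and was absent from list 3.

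The noncoding sites were concentrated in very few RNAs and the coding sites were spread thinly. MALAT1 alone held 942 of the noncoding sites and NEAT1 held 314, together 71.1% of the noncoding site and gene pairs, while 56 of the 141 noncoding genes had 1 site. Among coding genes, 31 of 43 had 1 site. None of the 66 coding sites was present in all 3 lists, against 326 of the 1740 noncoding sites. The rule sets the edge of these sets at 2 lists: 2720 coding and 8464 noncoding positions in single-exon genes were seen in 1 list only, just outside the rule, and 66 coding and 1414 noncoding positions in exactly 2. The lists were of very unequal size, with 1746795, 145718 and 208722 sites, and 92.6% of the 1817 sites were in list 1, 60.5% in list 2 and 64.8% in list 3.

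**Figure D1:**
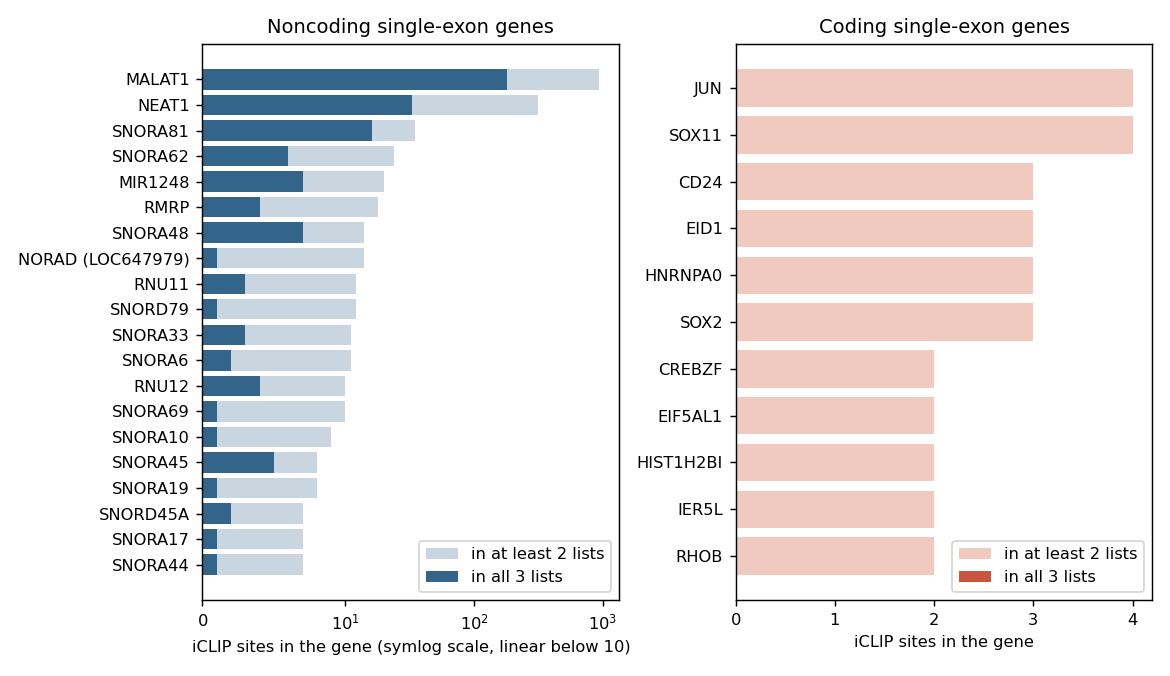
iCLIP sites per gene for 20 noncoding (left, scale linear below 10 and logarithmic above) and 11 coding (right, linear scale) single-exon genes among those with the most sites. Pale bars count sites in at least 2 lists and dark bars sites in all 3; MALAT1 reaches 942 and 180, and none of the coding genes shown has a dark bar.

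The authors gave each site a p-value, and many of these were large. Noncoding sites had median p-values of 0.0897 in list 1, 0.232 in list 2 and 0.285 in list 3, and coding sites had medians of 0.680, 0.260 and 0.269. The noncoding positions in all 3 lists had a median of 0.0396 in list 1, those in exactly 2 lists 0.113, and those in list 1 alone 0.382. Keeping positions with a p-value of at most 0.05 in each list counted left 102 noncoding sites in 22 genes and 0 coding sites. Side by side, 17.9% of the sites in single-exon genes were in all 3 lists, against 11.6% of the 13624 sites in last exons of genes with several exons, 6.81% of the 20637 intronic sites and 18.1% of the 5537 sites in no gene on their strand. A further site lay 1 nucleotide away for 43.3% of the sites in single-exon genes and for 27.7% of those in last exons. Within the single-exon genes it was 45.2% of noncoding sites, 38.85% of them without MALAT1, and 0% of coding sites. These shares are descriptions of sites that the rule chose.

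MALAT1, a nuclear RNA of splicing speckles at chr11:65021809-65030513 (hg18, plus strand), carried sites over most but not all of its 8705 nucleotides. Its first site lay at nucleotide 1294 and its last at 8295, none fell in the first decile of the model's length, and 29.2% lay nearer the 5′ than the 3′ end. The 100 nucleotides from 6800 held 32 sites, 10 of them in all 3 lists. List 1 marked 41.6% of all MALAT1 positions, against 8.04% in list 2 and 7.92% in list 3. Of the list 2 positions, 79.9% were also in list 1, and of the list 3 positions 80.8%. Lists 2 and 3 shared 186 positions, 26.6% of list 2 and 27.0% of list 3.

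NEAT1, the scaffold RNA of nuclear paraspeckles at chr11:64946845-64950577 (plus strand), is held in the tables as a model of 3733 nucleotides. Its sites lay toward the 3′ end: 26.1% lay nearer the 5′ than the 3′ end, and 73 of 314 lay in the last decile of its length. List 1 marked 56.2% of its positions, list 2 5.12% and list 3 5.89%, and 81.7% of the list 2 positions and 86.8% of the list 3 positions were in list 1. Lists 2 and 3, which do not share this dense cover, had 33 positions in common, 17.3% of list 2 and 15.0% of list 3. NORAD, a cytoplasmic RNA known for binding Pumilio proteins and listed as LOC647979 at chr20:34096956-34102296 (minus strand), had 14 sites in 5341 nucleotides, 1 of them in all 3 lists. Per kilobase of gene, MALAT1 had 108.2 sites, NEAT1 84.1 and NORAD 2.62. The RNA levels of the 3 genes in control cells, in CPM (counts scaled to a common library size) per kilobase, were 359.1, 204.8 and 59.5.

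**Figure D2:**
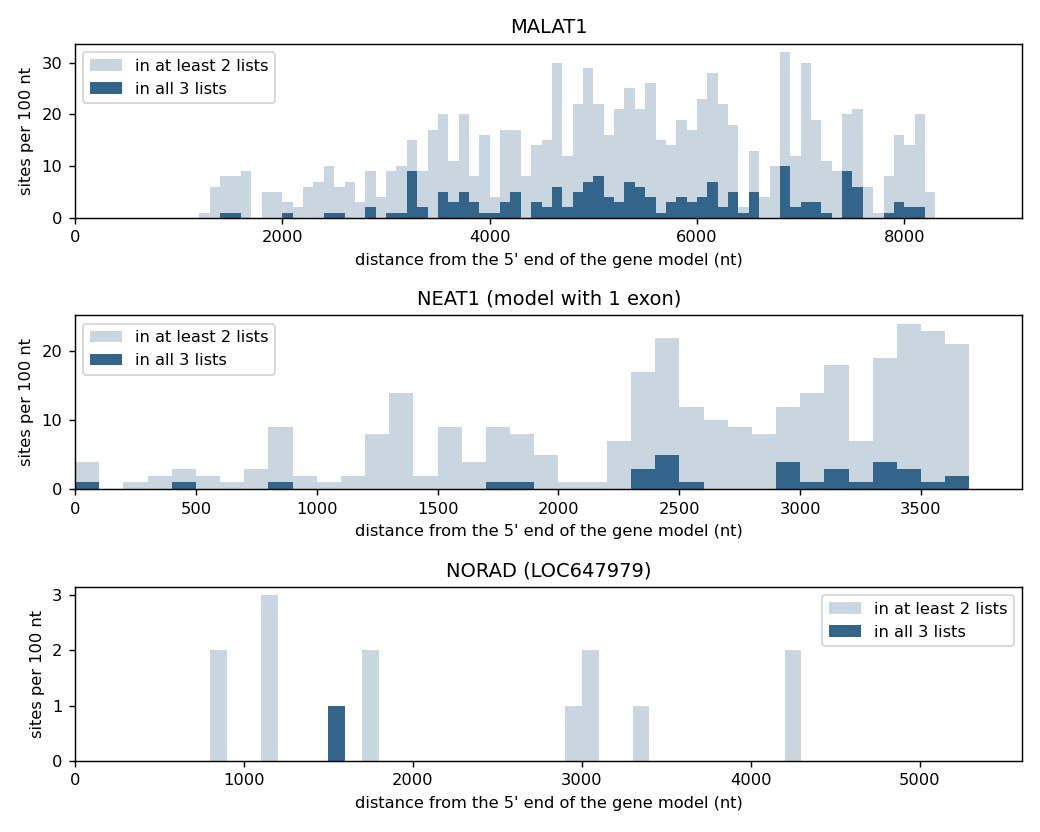
Sites per 100 nucleotides along the MALAT1, NEAT1 and NORAD gene models, from the 5′ end, for sites in at least 2 lists (pale) and in all 3 lists (dark). MALAT1 has no site before nucleotide 1294, NEAT1 sites are densest near its 3′ end, and NORAD has 14 sites in all.

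The snoRNAs made up most of the remaining noncoding genes. Sites lay in 50 of the 101 H/ACA snoRNA genes in the tables, with 248 sites, and in 48 of the 235 C/D snoRNA genes, with 117. SNORA81 had the most, 35 sites with 16 in all 3 lists, followed by SNORA62 with 24 and 6, SNORA48 with 14 and 7, and SNORD79, the C/D snoRNA with the most, with 12 and 1. List 1 was not the largest for any of these RNAs. SNORA81 had 35, 52 and 31 positions in lists 1, 2 and 3, and SNORA62 had 20, 42 and 28. SNORA48 had 14, 23 and 15, and SNORD79 had 8, 16 and 15. Over the bodies of all H/ACA genes lists 1, 2 and 3 had 444, 528 and 348 sites. Over those of all C/D genes they had 255, 221 and 219, with list 1 the largest. Lists 2 and 3 shared 22 SNORA81 positions, 42.3% of list 2 and 71.0% of list 3. The small nucleolar RNAs sit inside other genes: 236 of the 248 H/ACA and 112 of the 117 C/D sites also lay within a host gene with several exons on the same strand. EIF4A2, which encodes a translation initiation helicase, hosted 52 of these sites in SNORA81, SNORA4, SNORA63 and SNORD2. RPSA, a ribosomal protein gene, hosted 35 in SNORA62 and SNORA6, and GAS5, a noncoding host, 24 in 6 C/D snoRNAs. Together 22 hosts with ribosomal protein symbols held 134 of the 348 snoRNA sites in hosts.

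Site density was high in the snoRNA bodies and just before their 5′ ends, and low downstream of them. Over all 101 H/ACA genes, lists 1, 2 and 3 had 32.1, 38.1 and 25.1 sites per kilobase in the snoRNA body, 5.85, 6.19 and 5.39 in the 100 nucleotides upstream, and 1.19, 0.108 and 0.432 in the 100 nucleotides downstream. Over the 235 C/D genes the densities were 13.3, 11.5 and 11.4 in the body, 2.98, 1.59 and 1.73 upstream and 1.59, 0.234 and 0.374 downstream. These counts use every site of each list, not the chosen sites, and in each of the 3 lists and both families the body was denser than either flank. Upstream positions found in at least 2 lists and outside other exons lay close to the 5′ end. Over the H/ACA genes there were 38: 10 of them 1 nucleotide away, 14 at 2, 10 at 3, 1 at 4 and 3 between 11 and 14. Of 15 such positions at C/D genes, 7 lay 1 nucleotide away and the farthest 5. In the last 10 nucleotides before H/ACA genes lists 1, 2 and 3 had 39.9, 51.2 and 44.0 sites per kilobase, each above that list's value over the whole body. No position in at least 2 lists fell in the 100 nucleotides downstream of either family.

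Within the snoRNA body the families differed in where sites lay. In C/D snoRNAs 94.0% of the 117 sites lay nearer the 5′ than the 3′ end, with a median at nucleotide 21 and none in the last 3 deciles of the length. In H/ACA snoRNAs 45.6% of the 248 sites lay nearer the 5′ end, with the most in deciles 6 and 7 from the 5′ end (49 sites each) and none in the last 2. Measured from the 3′ end, the nearest H/ACA site lay 33 nucleotides away and the nearest C/D site 32. Because C/D snoRNAs are shorter (median 76 nucleotides over these sites, against 134.5 for H/ACA), a fixed distance from the 3′ end takes a larger part of them. The shortest read the authors kept is not stated, and the part of read length in this edge was not tested.

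**Figure D3:**
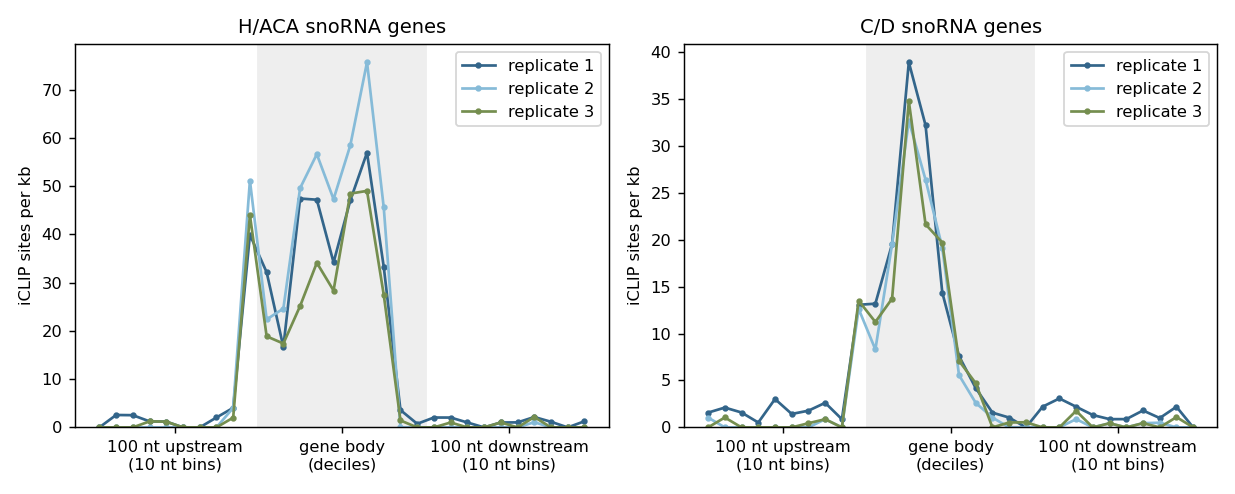
Density of iCLIP sites (sites per kilobase) in bins of 10 nucleotides over the 100 nucleotides upstream, in deciles of the gene body (shaded) and over the 100 nucleotides downstream, for 101 H/ACA and 235 C/D snoRNA genes, 1 line per iCLIP replicate. All 3 lines rise in the last bin before the body and are near 0 at its 3′ end, where no body site in at least 2 lists is nearer than 32 nucleotides.

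Every gene listed under an snRNA or vault RNA symbol carried sites. The 4 snRNA genes in the tables, RNU11, RNU12, RNU4ATAC and RNU6ATAC, all belong to the minor spliceosome, with site numbers of 12, 10, 3 and 3, of which 3, 4, 0 and 2 were in all 3 lists. The 3 genes with vault RNA symbols had 6 sites in VTRNA1-1 (4 in all 3 lists) and 2 each in VTRNA1-2 and VTRNA1-3. The vault RNA VTRNA2-1, listed as MIR886, had 1 site and is counted below with the microRNA symbols. RMRP, the RNA of the RNase MRP complex at chr9:35647750-35648014 (minus strand), had 18, and RPPH1, the RNA of RNase P, had 2. Small Cajal body RNAs, which guide modification of snRNAs, had sites in 8 of 24 genes. As with the snoRNAs, no snRNA site was nearer than 38 nucleotides to the 3′ end of its gene and no vault RNA site nearer than 50.

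Among 598 single-exon genes with a microRNA symbol 9 had sites, 33 in all. Not all of the 9 are microRNAs by RefSeq, which matches MIR886 to the vault RNA VTRNA2-1 and MIR1259 to the snoRNA SNORD12. MIR1826 could not be matched. MIR1248 had 20, and 18 of them also lay in SNORA81, which covers the same stretch of chromosome 3. All 5 sites of MIR1259 were also sites of SNORD12B. The mature miR-1248 is printed from RefSeq, with its seed (bases 2 to 8) in capitals, because it falls at one end of the SNORA81 RNA whose sites are described above.
hsa-miR-1248: aCCUUCUUguauaagcacugugcuaaa
This sequence is identical to nucleotides 1 to 27 of the matched SNORA81 transcript, and 1 of the 35 SNORA81 sites lay within it, so the MIR1248 sites lay almost all outside the mature microRNA.

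Coding sites lay toward the 3′ end of their genes. Of the 66 sites 42 (63.6%) fell in the last 3 deciles of the gene model and 6 (9.09%) in the first 3, and 22.7% lay nearer the 5′ than the 3′ end. The exon tables do not mark the coding region, so the share in 3′ untranslated regions was not measured. JUN, a subunit of the AP-1 transcription factor, had 4 between nucleotides 1453 and 2571 of 3323. SOX11, a neural transcription factor, had 4 between 2004 and 8580 of 8719. SOX2, a stem cell transcription factor, had 3 close together, at nucleotides 2337, 2341 and 2352 of 2502, and each of these was in lists 1 and 2 and not in list 3. EID1, an inhibitor of histone acetylation, HNRNPA0, an RNA-binding protein, and CD24, a surface glycoprotein, had 3 each; CD24 has near-identical copies, so its reads and sites may be shared with them.

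The replication-dependent histone genes, whose messenger RNAs end in a stem-loop in place of a poly(A) tail, had 8 sites in 7 genes. Of these sites 6 lay between 45 and 57 nucleotides from the 3′ end of the gene model: those of HIST1H3B at 45, HIST1H4C at 48, HIST1H2BI at 51 and 53, HIST1H2AG at 56 and HIST1H2BB at 57. The sites of HIST4H4 and HIST1H1E lay 335 and 671 nucleotides from the end. Histone genes are similar in sequence, so the authors' placing of reads among them is uncertain.

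The nucleotide at the site and its 3′ neighbours were often uridine. Sequence could be placed for 68 of the 191 genes and 239 of the 1844 site and gene pairs (27 sites lie in 2 genes), of which 169 pairs are in H/ACA and 51 in C/D snoRNAs; MALAT1, NEAT1, NORAD, RMRP, the snRNAs and the vault RNAs are not among them. The share of uridine was 53.1% at the site, 57.3% 1 nucleotide downstream and 44.9% 1 nucleotide upstream, against 29.6% over all positions of the same RNAs. It was 27.2% 4 nucleotides downstream. The comparison takes in the whole length of these RNAs, also the 3′ parts of snoRNAs that held no site. The SNORA69 window above, with a run of 5 T starting at the site, is an example, and the SNORA81, SNORA10 and SOX11 windows have another base at the site.

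**Figure D4:**
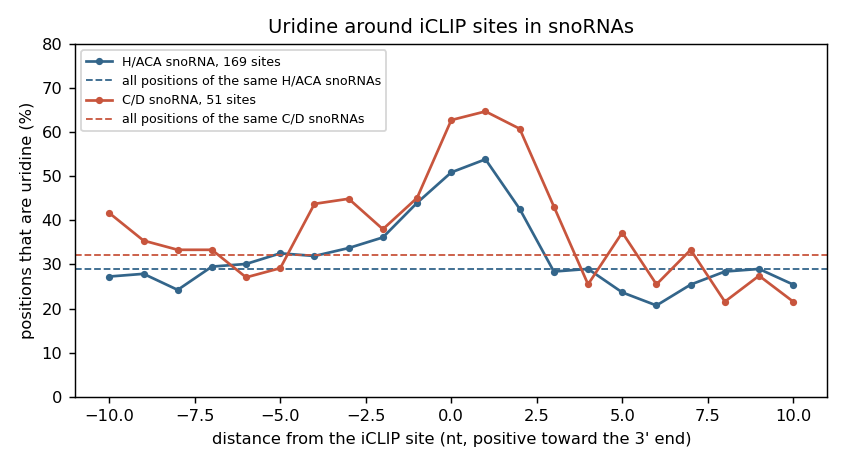
Share of positions that are uridine (%) from 10 nucleotides upstream to 10 nucleotides downstream of iCLIP sites in H/ACA snoRNAs (169 sites) and C/D snoRNAs (51 sites), with the share over all positions of the same RNAs as dashed lines. Both solid lines have their highest value 1 nucleotide downstream of the site.

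Motifs were searched in the RNA strand only, in windows of 21 nucleotides centred on 231 sites in 65 RNAs that leave room for the window. TAG, the core of the Musashi recognition motif, was in 24.7% of the site windows, against 24.5% of all windows of the same RNAs, and GTAG in 2.60%, against 3.01%. TTT was in 49.4%, against 34.3%, and TTTT, which contains TTT, in 28.1%, against 12.3%. In H/ACA snoRNAs TAG was in 29.7% of 165 site windows, against 26.6% of all windows, and in C/D snoRNAs in 5 of 48 site windows (10.4%), against 20.7% of all windows. The sites share RNAs and lie close together, so these shares are descriptions, and a match is not a binding site. All windows also cover the 3′ parts of snoRNAs, where no site lay. The shares therefore do not separate the sequence at sites from the part of the RNA that held them.

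Single-exon noncoding genes took a larger share of exonic iCLIP sites than of RNA exon counts. Counting all sites of a list that fell in exons, and not only those in at least 2 lists, 3.57%, 6.97% and 3.50% of iCLIP sites lay in single-exon noncoding genes, against 0.406%, 0.492% and 0.493% of exon counts in control RNA. The groups did not overlap, and the means differed by 4.21 percentage points (4.68 ± 1.98% and 0.464 ± 0.0498%, SD, n = 3 each; exact two-sided permutation test, p = 0.1, the smallest that 3 against 3 samples allow). With all sites in genes as the denominator the noncoding shares of iCLIP sites were 0.514%, 1.47% and 0.942%, and the difference was 0.513 points; for sites with the authors' p of at most 0.05 it was 10.8 points. Without MALAT1 the means were 2.92% for iCLIP and 0.225% for control RNA. For single-exon coding genes the shares were 0.923%, 0.754% and 0.827% of iCLIP sites and 0.606%, 0.631% and 0.607% of control exon counts (difference 0.220 points, exact two-sided permutation test, p = 0.1). The coding difference changed sign, to -0.0468 points, for sites with the authors' p of at most 0.05, and to -0.443 points with all sites in genes as the denominator. In both of these alternatives, coding and noncoding, only the iCLIP share was recomputed and the control shares stayed over exon counts. All sites in genes include intronic sites, so that denominator sets unlike shares side by side. A site is a position, counted once however many reads it has, and an exon count is of reads, so the pair of shares are not measured in the same unit. In control libraries 1, 2 and 3 the exon counts summed to 60776151, 49472589 and 41850423, above the 47277016, 38494503 and 32919299 reads counted in genes. A read can thus enter the denominator more than once, which can lower the control shares of single-exon genes. Exon counts in single-exon coding genes were 368444, 311905 and 254008 in control libraries 1, 2 and 3. Taken over reads counted in genes, they give control shares inside the range of the iCLIP shares. The coding groups then overlap, so the coding difference depends on this denominator.

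Most of the small RNAs with sites were hardly seen in the RNA-seq. In control cells 115 of the 141 noncoding genes were below 1 CPM, and 32 had no read in any of the 6 libraries. SNORA81 had 12, 8 and 9 reads in knockdown cells and 9, 6 and 5 in control cells, and MIR1248 had 0 reads in all 6. The median level in control cells, in CPM per kilobase, was 0.601 for the noncoding genes and 11.2 for the coding genes with sites. Sites were present in 37 of the 304 single-exon coding genes with enough reads to be tested (12.2%) and in 44 of the 229 noncoding ones (19.2%).

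The knockdown comparison asks whether RNAs with sites change in level when MSI1 is reduced. The 6 libraries held 32919299 to 47277016 reads counted in genes. MSI1 itself had 134, 195 and 90 counts in the knockdown libraries and 726, 688 and 244 in the control libraries. Its log2 fold change was -1.97 (SE 0.42), with an adjusted p of 0.0699 in edgeR's quasi-likelihood test and of 0.00279 in the same test with the replicate number as a block. Counts below are of genes with an edgeR adjusted p under 0.05 over the 13856 genes tested, of which 1.67% were called (0.772% higher and 0.902% lower in knockdown cells). With the block 17.3% were called, 7.04% higher and 10.3% lower. With DESeq2, over 14122 genes with an adjusted p-value, 5.06% were called, 2.83% higher and 2.24% lower. Glioma and astroglial markers such as VIM, NES, CD44 and EGFR were present in all 6 libraries, and summed leukocyte markers were between 0.540 and 0.761 CPM in knockdown and between 0.249 and 0.663 in control libraries. CHI3L1 was near 0, and the endothelial marker list summed to between 21.5 and 24.9 CPM in knockdown and between 12.9 and 14.4 in control libraries, almost all of it KDR, with PECAM1 and CDH5 below 1.

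Of the 44 noncoding genes with sites that could be tested, 0 were called higher and 1, MALAT1, lower. MALAT1 had 1878, 1841 and 2020 CPM in knockdown cells and 2777, 3219 and 3381 in control cells. Every knockdown library lay below every control library, and the log2 fold change was -0.71 (SE 0.13, edgeR adjusted p = 0.0462). That call was lost without any 1 of the knockdown libraries or of control libraries 1 and 2 (adjusted p between 0.113 and 0.301), and with the other size factors or without the filter on low counts (0.0704 and 0.0700). NEAT1 had 358.1, 443.8 and 461.6 CPM in knockdown cells and 639.9, 858.5 and 794.7 in control cells. Its groups did not overlap either, but its log2 fold change of -0.86 (SE 0.16) did not pass the edgeR test (adjusted p = 0.0548) and passed it with the block (0.00223).

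With the replicate block, 2 of the 44 noncoding genes were called higher and 3 lower, against 7.04% and 10.3% of all genes. RPPH1 (log2 fold change 1.40 with the block, edgeR adjusted p = 0.0336) and LINC02035, listed as LOC100129550 (0.75, edgeR adjusted p = 0.0171), were higher. MALAT1, NEAT1 and GABPB1-AS1, listed as LOC100129387 (-0.43, edgeR adjusted p = 0.0360), were lower. DESeq2 called 2 higher and 2 lower, against 2.83% and 2.24% of all genes. NORAD had 347.6, 296.2 and 366.7 CPM in knockdown cells and 306.9, 280.8 and 366.1 in control cells, overlapping ranges (log2 fold change 0.08, edgeR adjusted p = 0.874). RMRP had 7.16, 13.2 and 10.3 in knockdown cells and 7.32, 9.59 and 4.45 in control cells (0.52, edgeR adjusted p = 0.557). The median log2 fold change of the 44 genes was 0.02, against -0.04 over all genes tested.

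No snoRNA with sites passed a test. Of the 98, 23 had enough reads, 12 with a positive and 11 with a negative log2 fold change; 0 were called by edgeR, with or without the block, or by DESeq2, and 0 had an unadjusted p under 0.05. A further 24 had no read in any library. SNORA62 had 13, 20 and 16 reads in knockdown cells and 29, 19 and 15 in control cells, and SNORA48 had 25, 27 and 25 against 31, 26 and 25. No snRNA, vault RNA or microRNA gene with sites had enough reads to be tested.

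Of the 37 coding genes with sites that could be tested, 0 were called higher and 2 lower. TAF7, a subunit of the general transcription factor TFIID, had 66.3, 57.0 and 80.2 CPM in knockdown cells and 151.2, 143.2 and 191.5 in control cells. It had 1 site, at nucleotide 2021 of 2295, and a log2 fold change of -1.25 (SE 0.18, edgeR adjusted p = 0.0279). SOX2 had 94.9, 89.9 and 84.9 CPM in knockdown cells and 152.0, 137.0 and 167.0 in control cells, and a log2 fold change of -0.76 (SE 0.13, edgeR adjusted p = 0.0432). In both genes the groups did not overlap. Without any 1 of the knockdown libraries or of control libraries 1 and 2 neither call held (adjusted p between 0.0849 and 0.214 for TAF7 and between 0.109 and 0.253 for SOX2), and SOX2 also lost its call with the other size factors (0.0646) and without the filter (0.0700). SOX2 lies in an intron of SOX2OT on the same strand, so part of its reads could belong to that transcript.

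Among the coding genes with the most sites the directions differed. SOX11 had 168.0, 171.0 and 164.8 CPM in knockdown cells and 95.1, 84.8 and 113.4 in control cells, without overlap (log2 fold change 0.78, SE 0.14, edgeR adjusted p = 0.0510, and 0.00752 with the block). RHOB, a small GTPase, had 259.6, 299.2 and 237.9 in knockdown cells and 186.5, 196.6 and 140.6 in control cells, also without overlap (0.61, SE 0.17, edgeR adjusted p = 0.138, and 0.00721 with the block). JUN had 138.3, 142.0 and 87.7 in knockdown cells and 147.6, 126.8 and 58.1 in control cells, and these ranges overlapped (0.15, SE 0.35, edgeR adjusted p = 0.907). EID1, HNRNPA0 and CD24 also had overlapping libraries and edgeR adjusted p-values of 0.631, 0.618 and 0.940.

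**Figure D5:**
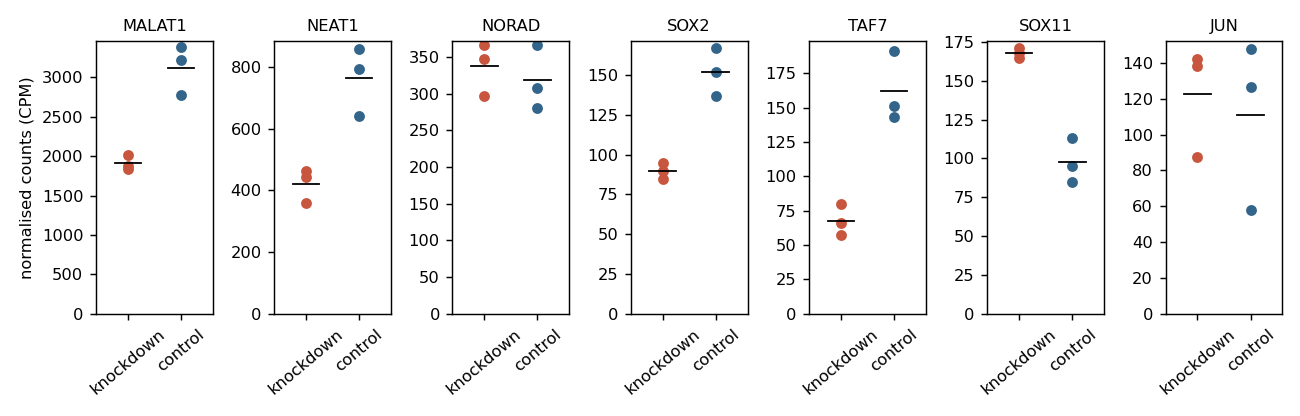
Normalised counts (CPM) in each MSI1 knockdown library (left in each panel) and each control library (right), with the group mean as a bar, for 7 single-exon genes with iCLIP sites. Knockdown and control libraries do not overlap for MALAT1, NEAT1, SOX2, TAF7 and SOX11, and overlap for NORAD and JUN.

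With the replicate block, 6 of the 37 coding genes were called higher and 6 lower, against a background of 7.04% and 10.3% of all genes. SOX11, RHOB, RAP2B, SPIN4, UBQLN2 and IRF2BPL (listed as C14orf4) were higher, and the genes called lower included SOX2, TAF7, ITPRIPL2 and TMEM158. DESeq2 called 3 of the coding genes higher and 3 lower, against 2.83% and 2.24% of all genes. Libraries of the 2 groups did not overlap for 14 of the 37 genes, 6 higher and 8 lower in the knockdown, against 22.8% of all genes tested, 8.73% higher and 14.1% lower. The median log2 fold change was 0.05, with 19 positive and 18 negative values. For the 267 tested single-exon coding genes without such sites, edgeR called 2 higher and 1 lower, and with the block 16 and 24.

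Sites and knockdown calls were also counted by gene list. Of 15 SOX and other neural factor genes with a single exon 3 had sites (SOX2, SOX11 and POU3F2). Over the 9 tested genes of that list edgeR called SOX2 and SOX4 lower and none higher. With the block SOX3 and SOX11 were called higher and SOX2 and SOX4 lower, against 7.04% and 10.3% of all genes. SOX3 and SOX4 had no site in at least 2 lists. Of 9 single-exon AP-1, CEBP and immediate early genes 4 had sites (JUN, RHOB, IER5 and IER5L), and 0 of the 10 tested genes of that list were called by edgeR, 1 with the block. None of the 13 frizzled and other receptor genes, the 3 HSP70 genes or the 19 protocadherin, claudin and connexin genes had a site. Of 60 single-exon replication-dependent histone genes 7 had sites, and 0 of the 19 tested were called by edgeR. Of the 8 listed nuclear and other noncoding RNAs with a single exon 7 had sites.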

How the data were processed

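RNA-seq of 3 MSI1 knockdown and 3 control samples and 3 MSI1 iCLIP site lists of U251 cells were used. The authors deposited raw read counts per gene and per exon, and for iCLIP a p-value per single-nucleotide site, with hg18 coordinates per the submitters' processing notes. The aligner, read counter, strand setting and site caller were not given in the sources used here, so reads of overlapping genes cannot be told apart with certainty. The labels say that biological replicates were combined for sequencing, so p-values measure the spread between the deposited samples. A site was kept when at least 2 lists held the same position and strand. Genes were classed as coding or noncoding by RefSeq symbol, locus number or synonym (2433 of 2490 single-exon genes matched). Gene counts were tested with edgeR 4.0.16 (R 4.3.3; TMM, filterByExpr, quasi-likelihood test, Benjamini-Hochberg adjustment over 13856 genes), with DESeq2 1.42.0, other size factors, no filter, a replicate block and single libraries left out as alternatives. Log2 fold changes are knockdown minus control. Same-numbered knockdown and control libraries deviated together from their group means (r = 0.318, 0.732 and 0.752). The numbers in the titles were taken to pair them in the block test only, and the main test used the group alone. Control library 1 deviated more with knockdown library 2 (r = 0.494). The pairing was read from these same data and is uncertain. The site overlap and the edgeR test were checked on simulated data. The members and gene lists were chosen with earlier results of these data known. Genes named are MSI1, the 10 coding and 10 noncoding genes with the most sites, genes called in the knockdown and up to 4 per gene list; SNORA69, SNORA10, SNORA45, SNORD45A and SNORD28, the host genes and others named for single sites or block calls were chosen after their values were seen. A few genes that these rules name are not reported here. The iCLIP lists give no reads, so only their size in sites describes their depth.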

Additional observations from a re-analysis of the deposited data

How the results depend on the processing

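Site counts depend strongly on the rule. The 66 coding sites in 43 genes and 1740 noncoding sites in 141 genes became 0 in 0 and 326 in 53 when all 3 lists were required, 0 in 0 and 102 in 22 at the authors' p of at most 0.05, 0 in 0 and 23 in 11 at 0.01, and 269 in 66 coding genes and 5463 noncoding sites when a position within 3 nucleotides in another list sufficed. Leaving out sites inside another gene left 33 noncoding genes. Without 1 iCLIP list the counts ranged from 3 to 48 coding sites, 3 to 36 coding genes, 454 to 990 noncoding sites and 84 to 112 noncoding genes. The coding difference in shares reversed to -0.0468 points at the authors' p of at most 0.05 and to -0.443 with all sites in genes as the denominator. In both, only the iCLIP share was recomputed and the control shares stayed over exon counts. Coding genes called higher numbered 3 with DESeq2, 6 with the replicate block and 0 to 3 with 1 library left out (3 without control 3), and lower 1 with other size factors, 1 without the filter, 6 with the block and 0 to 3 with 1 library left out (3 without control 3, 0 without any other). Noncoding genes called higher numbered 2 with DESeq2, 2 with the block and 0 to 1 with 1 library left out (1 without control 3), and lower 0 with other size factors, 0 without the filter, 2 with DESeq2, 3 with the block and 0 to 2 with 1 library left out (2 without control 3, 0 without any other). Calls over all genes numbered 232 in the main test, 715 with DESeq2 and 2398 with the block. Log2 fold changes of 8 uncalled genes changed sign when 1 library was left out, ranging from -0.10 to 0.41 for JUN, -0.088 to 0.36 for CD24, -0.32 to 0.014 for EID1, -0.24 to 0.17 for CREBZF, -0.10 to 0.59 for IER5L, -0.000503 to 0.26 for LOC647979, -0.11 to 0.0044 for POU3F2 and -0.11 to 0.64 for HIST1H2AG. The cause of these changes was not tested. List 1 is far larger than the others and holds most of the sites, and only 23 of the 98 snoRNAs with sites had enough reads to be tested.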
